A study of Homo sapiens with 6 samples.

Results

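The nuclear genes for the subunits and close partners of the oxidative phosphorylation system were described in MDA-MB-231 cells, a line from a triple-negative breast cancer. The members were the protein-coding genes of the deposited count table whose symbols begin with NDUFA, NDUFB, NDUFC, NDUFS, NDUFV, UQCR, ATP5 or COX4 to COX8, together with SDHA to SDHD, CYC1 and CYCS, and without NDUFA4 and NDUFA4L2. The rule used names only, and it found 95 members among 28675 genes, of which 16579 were protein coding. COX4I2, COX6A2 and COX8C, which the rule would also take, have no row in the table. The study compared 3 libraries of cells labelled as overexpressing LARP6, a La-related protein that binds RNA, with 3 libraries of cells carrying a no-load control. All 6 libraries were stranded mRNA libraries from the same line, and the labels name neither the vector and its promoter nor any selection of clones. The series set out to ask how LARP6 acts on RNAs, including their splicing, in this cancer type.

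Oxidative phosphorylation passes electrons from NADH (through complex I) or succinate (through complex II) to ubiquinone, then through complex III and cytochrome c to oxygen at complex IV. Complexes I, III and IV pump protons across the inner mitochondrial membrane, and the ATP synthase (complex V) uses their return to make ATP. All complexes but complex II join subunits from the nuclear genome with subunits encoded in mitochondrial DNA. Cancer cell lines use this system to differing degrees beside glycolysis.

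The label was checked first. LARP6 had 1995, 2198 and 2131 CPM (depth-normalised read counts, scaled by TMM) in LARP6 libraries 1, 2 and 3, against 44.2, 40.7 and 43.3 CPM in control libraries 1, 2 and 3, a log2 fold change of 5.62 ± 0.04 (SE). Total counts were 29409101 to 33387050 per library. Of the markers of the line, VIM, CD44 and AXL were to be present, and ESR1, PGR and ERBB2 absent or low. ERBB2 was not absent, at 54.9 CPM in LARP6 cells and 57.2 CPM in control cells. AXL averaged 699 CPM in LARP6 cells and 687 CPM in control cells. VIM averaged 3345 CPM in LARP6 cells and 3151 CPM in control cells and was called higher (0.09 ± 0.02, adjusted p = 0.0166 in edgeR). It was called in 13 of 19 alternative fits, and not without LARP6 library 1 or 2 or control library 1 or 2. CD44 averaged 724 CPM in LARP6 cells and 761 CPM in control cells without overlap or a call (adjusted p = 0.0672). ESR1 and PGR lay at or near 0 in every library. Of 12 markers of other cell types, 9 had a row, and their highest were the epithelial genes KRT8, at 1054 CPM in LARP6 cells and 1049 CPM in control cells, and MUC1, at 63 CPM in LARP6 cells and 59.4 CPM in control cells. PTPRC and CD3E, which mark white blood cells, were below 0.5 CPM in every library. In bulk libraries such as these, fewer cells of a type and less RNA per cell cannot be told apart, and CPM is a share of the RNA, not an amount per cell.

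Most members had slightly lower values in LARP6 cells, and the fitted difference was small at every gene tested. Of the 91 members that passed the low-count filter, 7 were lower at an adjusted p below 0.05 in edgeR's quasi-likelihood test, 0 were higher and 84 were not called. That is 7.69% called lower, against 3.6% of all 16226 genes tested, 4.23% of the protein-coding genes tested and 6.93% of the 7485 genes with a mean of at least 20 CPM. The share called among the members was thus near that of genes with a mean of at least 20 CPM. That set has a floor only and is not matched to the members in abundance. Higher calls made up 2.43% of all genes tested and 3.37% of genes with a mean of at least 20 CPM. The median log2 fold change of the members was -0.05, a difference of -3.6%, while the median was 0.00 over all genes tested and -0.01 over genes with a mean of at least 20 CPM. The members' fitted values ranged from -0.15 to 0.08 on the log2 scale, and all 91 lay within 10% of no change. The low-count members COX7B2 and UQCRHL had SEs of 0.24 and 0.23, so larger differences in them are not excluded. The fitted value was below 0 for 78 members (85.7%), against 48.8% of all genes tested and 54.3% of genes with a mean of at least 20 CPM. The unadjusted p was below 0.05 for 35 members with a lower value and for 0 with a higher one.

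**Figure D1:**
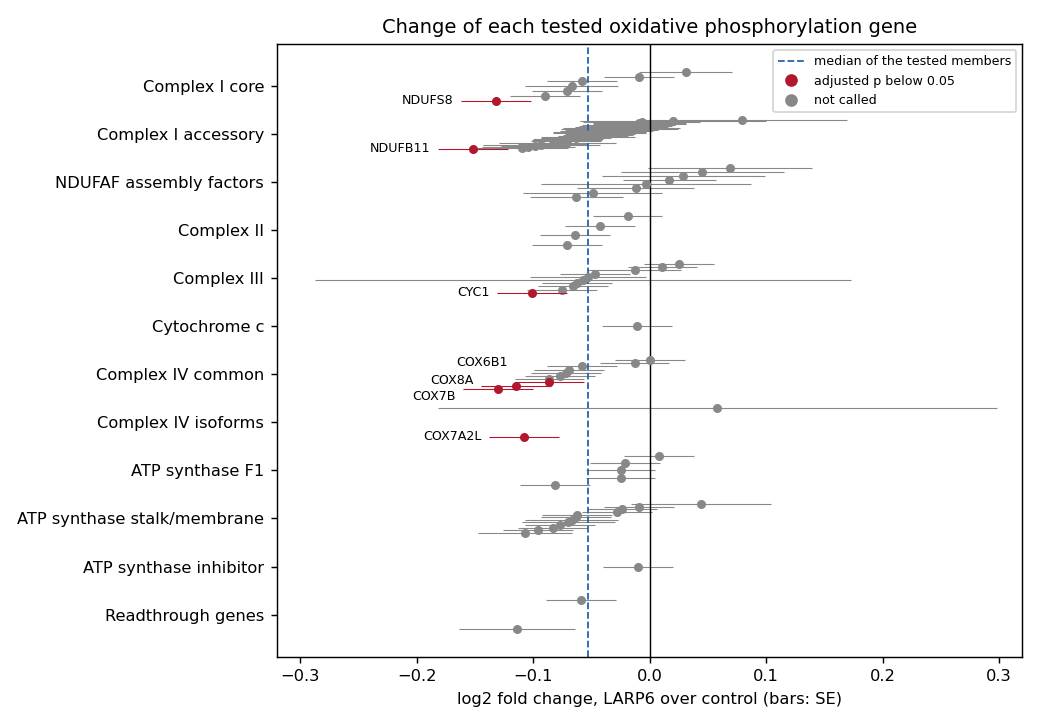
Log2 fold change of LARP6 over control (x axis) for each of the 91 tested members, grouped by complex (y axis), with bars of 1 SE. Red points are the 7 members called at an adjusted p below 0.05, all lower, grey points were not called, and the dashed line is the members' median of -0.05.

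The 7 called members belong to complexes I, III and IV. NDUFB11, an accessory subunit of the membrane arm of complex I (X:47142216-47145504, GRCh38), had 122, 129 and 136 CPM in LARP6 libraries 1, 2 and 3, against 144, 141 and 146 CPM in the control libraries. All 3 LARP6 values lay below the lowest control value, and the log2 fold change was -0.15 ± 0.03 (adjusted p = 0.000763). NDUFS8 (11:68030617-68036644) encodes a core iron-sulfur subunit of complex I, on the electron path. It had 167, 175 and 185 CPM in LARP6 libraries, against 198, 194 and 187 CPM in control libraries. The highest LARP6 library and the lowest control library nearly met, and the log2 fold change was -0.13 ± 0.03 (adjusted p = 0.00232).

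COX7B (X:77899438-77907373) and COX8A (11:63974607-63976543) encode small structural subunits of complex IV. COX7B had 122, 126 and 115 CPM in LARP6 libraries, against 135, 132 and 130 CPM in control libraries (-0.13 ± 0.03, adjusted p = 0.00636). COX8A had 375, 376 and 390 CPM in LARP6 libraries, against 412, 408 and 416 CPM in control libraries (-0.12 ± 0.03, adjusted p = 0.00184). Neither gene's groups overlapped. COX6B1 (19:35648223-35658861), whose product lies on the intermembrane side of complex IV, had 225, 235 and 235 CPM in LARP6 libraries, against 242, 247 and 249 CPM in control libraries (-0.09 ± 0.03, adjusted p = 0.0493). COX7A2L (2:42333546-42425088) is related to a complex IV subunit and helps join complex IV with complex III. Its levels were 109, 109 and 113 CPM in LARP6 libraries and 115, 119 and 122 CPM in control libraries (-0.11 ± 0.03, adjusted p = 0.0357). CYC1 (8:144095027-144097525) encodes cytochrome c1, the heme protein through which complex III hands electrons to cytochrome c. It had 250, 255 and 263 CPM in LARP6 libraries, against 278, 268 and 277 CPM in control libraries (-0.10 ± 0.03, adjusted p = 0.0148). In each of these 7 genes the LARP6 values lay below all control values.

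**Figure D2:**
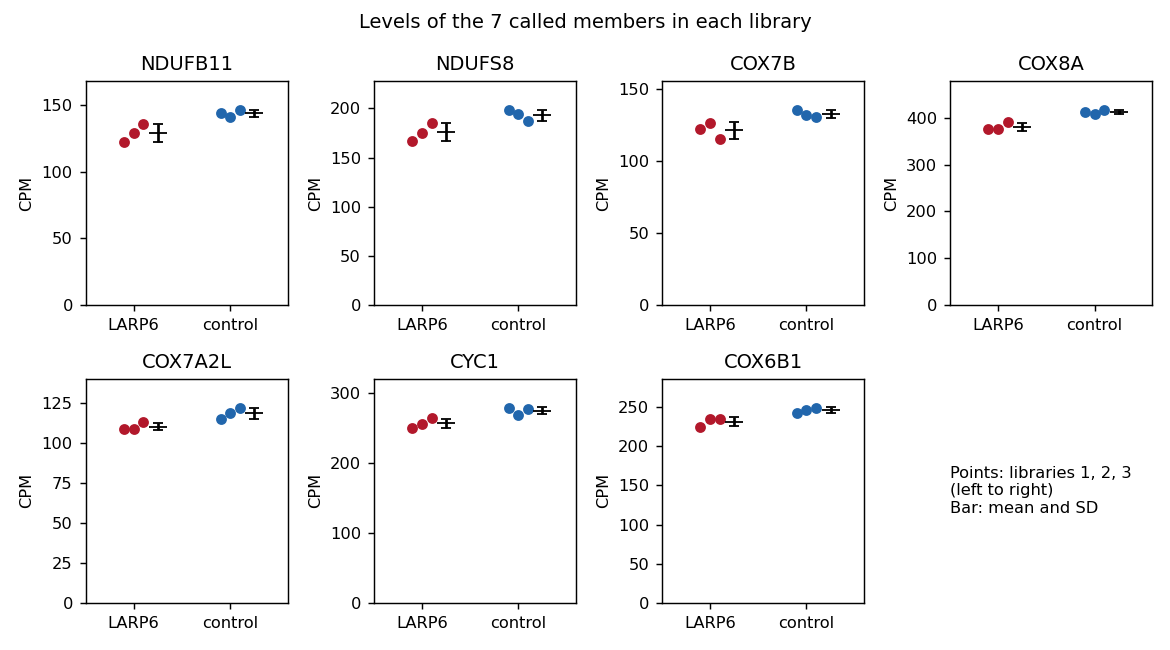
CPM (y axis, from 0) of the 7 called members in LARP6 libraries 1, 2 and 3 (red, left) and control libraries 1, 2 and 3 (blue, right), with the mean and SD of each group as bars. In every panel the LARP6 points lie below the control points, and the gap is small beside the level, as in COX8A with 375 to 390 CPM against 408 to 416 CPM.

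Which members were called moved with the libraries. LARP6 library 1 gave the lowest values, with 81 of the 91 members below their own mean over the 6 libraries, and 53 and 63 in LARP6 libraries 2 and 3, against 36, 23 and 18 in control libraries 1, 2 and 3. In genes with a mean of at least 20 CPM, 4148 of 7485 were below their mean in LARP6 library 1. Without that library 2 members were called lower, COX7B and COX8A (2.2%, against 1.71% of all genes and 3.21% of genes with a mean of at least 20 CPM). Without LARP6 library 2, 4 were called (4.4%, against 1.7% and 3.21%), and without LARP6 library 3, 11 were called (12.1%, against 3.89% and 7.67%). The share over all genes thus moved with the libraries too. With DESeq2, COX6B1 and COX7A2L were not called and the other 5 were. With library size only as scaling, 4 members were called (4.4%, against 1.87% of all genes and 3.45% of genes with a mean of at least 20 CPM). Over all genes 303 were lower and 687 higher, against 584 lower and 395 higher with TMM.

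**Figure D3:**
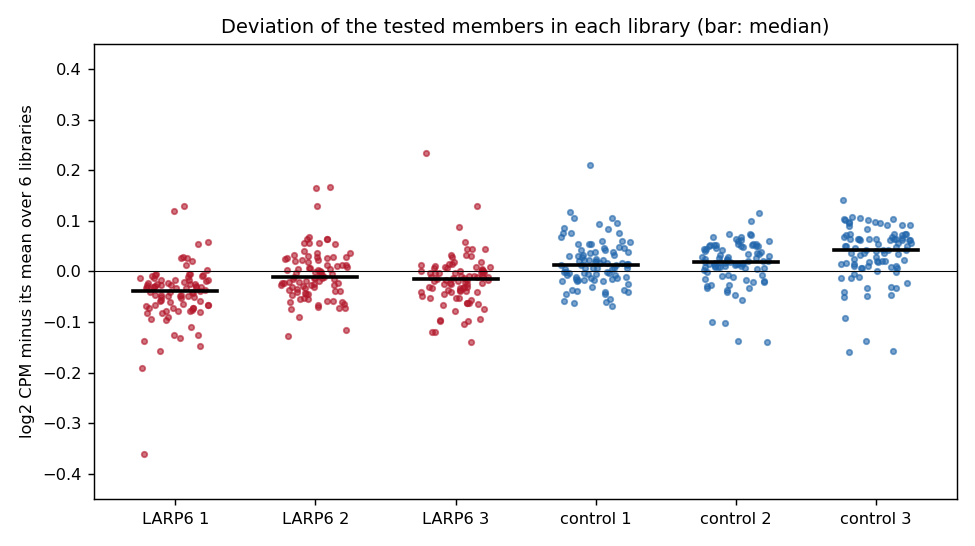
Deviation of each tested member's log2 CPM from its mean over the 6 libraries (y axis) in LARP6 libraries (red) and control libraries (blue), with the median of each library as a bar. The medians are -0.039, -0.011 and -0.015 in LARP6 libraries 1, 2 and 3, and 0.012, 0.019 and 0.043 in control libraries 1, 2 and 3.

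The members' transcripts are short, and among genes with a mean of at least 20 CPM the shorter ones had the lower fold changes. The median longest transcript of the members was 1585 bases, against 3642 bases in protein-coding genes tested and 3586 bases in genes with a mean of at least 20 CPM. In 5 classes of 1494 of the latter genes by transcript length, from shortest to longest, the median log2 fold change was -0.05, -0.03, -0.01, 0.01 and 0.04. The shortest class, 207 to 2065 bases, held 55 of the members, and the other classes held 12, 9, 5 and 4. To 3 decimals the members' median was -0.053 and that of the shortest class -0.046, and the part of length in the members' values was not tested beyond the fit with offsets. With GC and length offsets in the fit the members' median was -0.030, with 7 called lower (7.69%, against 2.39% of all genes and 4.5% of genes with a mean of at least 20 CPM in that fit). Of these COX7A2L and COX7B were also among the 7 above, and ATP5MC3, ATP5MG, COX4I1, NDUFA9 and UQCRFS1 were not.

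**Figure D4:**
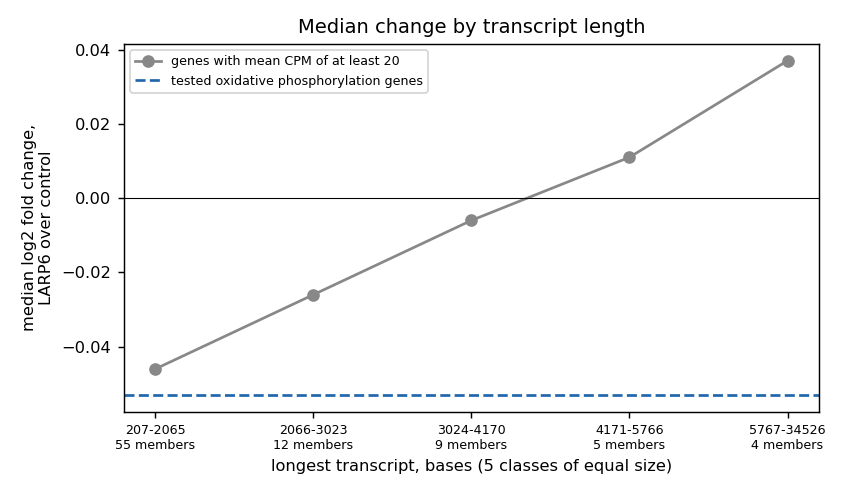
Median log2 fold change of LARP6 over control (y axis) in 5 classes of the genes with a mean of at least 20 CPM, ordered by longest transcript (x axis, bases, with the number of members in each class). The medians run from -0.05 in the shortest class to 0.04 in the longest, and the dashed line is the members' median.

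In complex I, 2 of 36 tested subunits were called lower and the median log2 fold change was -0.05. That is 5.56% called lower, against 3.6% of all genes tested and 6.93% of genes with a mean of at least 20 CPM. The core subunits, which carry the flavin and the iron-sulfur clusters, had a median of -0.07 with 1 of 7 called (14.3%). NDUFV1, which binds NADH, had 140, 147 and 148 CPM in LARP6 libraries and 154, 152 and 156 CPM in control libraries (-0.09 ± 0.03, adjusted p = 0.0681). NDUFS3 had 146, 146 and 142 CPM against 150, 152 and 154 CPM in control libraries (-0.07 ± 0.03, adjusted p = 0.178). The groups did not overlap in either gene. The accessory subunits, which surround and stabilise the core, had a median of -0.04 with 1 of 29 called (3.45%). NDUFB7 had 82.3, 84.4 and 83.3 CPM in LARP6 libraries and 91.8, 89.6 and 88.3 CPM in control libraries (-0.11 ± 0.04, adjusted p = 0.0546), and NDUFB10 had 105, 104 and 102 CPM against 111, 110 and 112 CPM in control libraries (adjusted p = 0.0675). NDUFA3, NDUFB2, NDUFS5, NDUFS6 and NDUFA1 also had groups that did not overlap, at adjusted p of 0.126 to 0.428. Over the whole complex 11 subunits had all LARP6 libraries below all control libraries and 0 had them above. Across all 91 tested members the counts were 27 and 0, against 11.7% of all genes tested lower and 10.6% higher, and 17.7% and 11.7% of genes with a mean of at least 20 CPM. The NDUFAF genes, whose products build complex I without staying in it, had a median of 0.01, a range of -0.06 to 0.07 and 0 of 8 called.

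Complex II, the only complex here made of nuclear subunits alone, had 0 of 4 subunits called and a median of -0.05. SDHB, its iron-sulfur subunit, had 117, 119 and 121 CPM in LARP6 libraries and 121, 126 and 127 CPM in control libraries, so that the groups all but met (-0.07 ± 0.03, adjusted p = 0.208). SDHA, which holds the flavin, averaged 211 ± 5.51 CPM in LARP6 cells and 221 ± 5.23 CPM in control cells (SD, n = 3 each), with an adjusted p of 0.199 in edgeR. In complex III, CYC1 was the 1 of 10 called and the median was -0.05. That is 10% called lower, against 3.6% of all genes tested and 6.93% of genes with a mean of at least 20 CPM. UQCRFS1, the Rieske iron-sulfur protein, had 164, 173 and 171 CPM in LARP6 libraries and 175, 177 and 178 CPM in control libraries (-0.06 ± 0.03, adjusted p = 0.244). UQCRH, a hinge protein beside cytochrome c1, averaged 230 ± 5.88 CPM in LARP6 cells and 226 ± 4.78 CPM in control cells (SD, n = 3 each), at an edgeR adjusted p of 0.707. CYCS, cytochrome c itself, had a log2 fold change of -0.01 (adjusted p = 0.878).

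Complex IV held 4 of the 7 calls, among 12 tested subunits and relatives, and its median was -0.07. That is 33.3% called lower, against 3.6% of all genes tested and 6.93% of genes with a mean of at least 20 CPM. Of the 4, COX6B1 and COX7A2L were not called with DESeq2, and COX6B1 and COX8A were not called with GC and length offsets. COX5B and COX5A had LARP6 values below all control values. COX5B had 163, 166 and 169 CPM in LARP6 libraries and 173, 172 and 183 CPM in control libraries (-0.09 ± 0.03, adjusted p = 0.0715). COX7C and COX6C had log2 fold changes of 0.00 and -0.01. In the ATP synthase, 0 of 17 tested subunits were called and the median was -0.06. The F1 head, which makes ATP, had a median of -0.03 and the stalk and membrane subunits a median of -0.06. ATP5MC1, 1 of 3 genes for the same c-ring protein, had 114, 123 and 123 CPM in LARP6 libraries and 128, 127 and 130 CPM in control libraries (-0.10 ± 0.03, adjusted p = 0.0651). ATP5IF1, which inhibits ATP hydrolysis by the synthase, had a log2 fold change of -0.01 (adjusted p = 0.912).

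Summed over each complex, the level was lower in LARP6 cells for every complex, and the groups did not overlap. The sum of complex I was 3505 ± 44.1 CPM in LARP6 cells and 3654 ± 36.7 CPM in control cells (SD, n = 3 each), a difference of -4.08%. Complex IV summed to 2625 ± 30.5 CPM in LARP6 cells and 2755 ± 68 CPM in control cells, a difference of -4.7%. The differences were -3.46% for complex II, -2.92% for complex III and -2.45% for the ATP synthase. With library size only as scaling, complexes I, II and IV still did not overlap, while complex III (-1.16%) and the ATP synthase (-0.687%) did. All members together took 1.33% of the counts in LARP6 cells and 1.35% in control cells.

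Of the 13 subunits encoded in mitochondrial DNA, 8 were called lower and 0 higher, and the median log2 fold change was -0.11. That is 61.5% called lower, against 3.6% of all genes tested and 6.93% of genes with a mean of at least 20 CPM. Each of these subunits had at least 201 CPM in every library, so that set is not matched to them in abundance. MT-ND2, a core subunit of complex I, had 5013, 5217 and 5280 CPM in LARP6 libraries and 5639, 5460 and 6038 CPM in control libraries (-0.14 ± 0.03, adjusted p = 0.000135). MT-CO2, which takes electrons from cytochrome c, had 8459, 8764 and 8424 CPM in LARP6 libraries and 9142, 8991 and 9667 CPM in control libraries (-0.12 ± 0.03, adjusted p = 0.000735). The number called was 10 with no low-count filter, 10 without control library 1, 5 with DESeq2, 3 with limma-voom, 3 with GC and length offsets and 0 in limma on log2 FPKM. Mitochondrially encoded counts were 4.74 ± 0.0518 times the nuclear members' counts in LARP6 cells and 4.92 ± 0.182 times in control cells (SD, n = 3 each), and these ratios overlapped.

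Other genes of the pathway were counted from lists, beside 3.6% of all genes tested called lower and 2.43% called higher. Of 47 further assembly factors, 0 were lower and 1 was higher, LYRM7, which helps insert the Rieske protein into complex III. It had 11.6, 11.9 and 11.5 CPM in LARP6 libraries and 10.4, 10.2 and 8.32 CPM in control libraries (0.28 ± 0.09, adjusted p = 0.0484). Of 16 regulators of mitochondrial biogenesis 1 was lower, ESRRA, a nuclear receptor that acts on many of these genes, with 94.1, 90.1 and 94.5 CPM against 100, 101 and 105 CPM in control libraries (-0.13 ± 0.04, adjusted p = 0.00995). Of 14 enzymes of the TCA cycle, which supplies NADH and succinate, 2 were lower and 0 higher: MDH2 (-0.12 ± 0.03, adjusted p = 0.000791) and IDH3G (-0.14 ± 0.04, adjusted p = 0.0202). Of 19 alternative fits, MDH2 was called in 16, ESRRA in 13, IDH3G in 9 and LYRM7 in 8, with LYRM7 and IDH3G not called by DESeq2, and LYRM7, IDH3G and ESRRA not called with GC and length offsets. Of 7 mitochondrial carriers and porins, which move ADP, ATP, phosphate and metabolites across the membranes, 0 were called, and the smallest adjusted p was 0.1, in SLC25A5 (560 ± 9.57 CPM in LARP6 cells and 587 ± 17.8 CPM in control cells, SD, n = 3 each, edgeR).

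Levels between members were compared in the deposited FPKM, which is per length. In complex I, NDUFS5 stood highest at 383 FPKM over the 6 libraries. NDUFA7, which was not tested, stood lowest at 0.0733 FPKM, and NDUFA11 was the lowest tested subunit at 2.07 FPKM. NDUFA7 (21 counts) and NDUFA11 (2098 counts) share exons with genes of 9163 and 26950 counts. Their low ranks are thus uncertain. COX8A was highest in complex IV at 707 FPKM, UQCRH in complex III at 150 FPKM and ATP5F1B, the catalytic beta subunit, in the ATP synthase at 366 FPKM. The ranges of NDUFS5 (369 to 394 FPKM) and of NDUFA1 after it (277 to 291 FPKM) did not overlap. The length behind the FPKM was worked back here from the counts, the FPKM and the summed counts of each library. A different read total behind the FPKM would scale all these lengths alike, so their size is uncertain. The median was 1.13 times all exons of a member, and 2.23 times its principal transcript. The latter ratio ran from 1.1 to 6.08 (10th to 90th percentile of members), so the order depends on gene structure. Per kilobase of principal transcript the same 4 genes were highest, while the lowest tested subunit of complex I was NDUFA9, not NDUFA11, and SDHC was highest in complex II in FPKM (53.2) and lowest per principal kilobase. Its annotated principal transcript has 13566 bases.

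**Figure D5:**
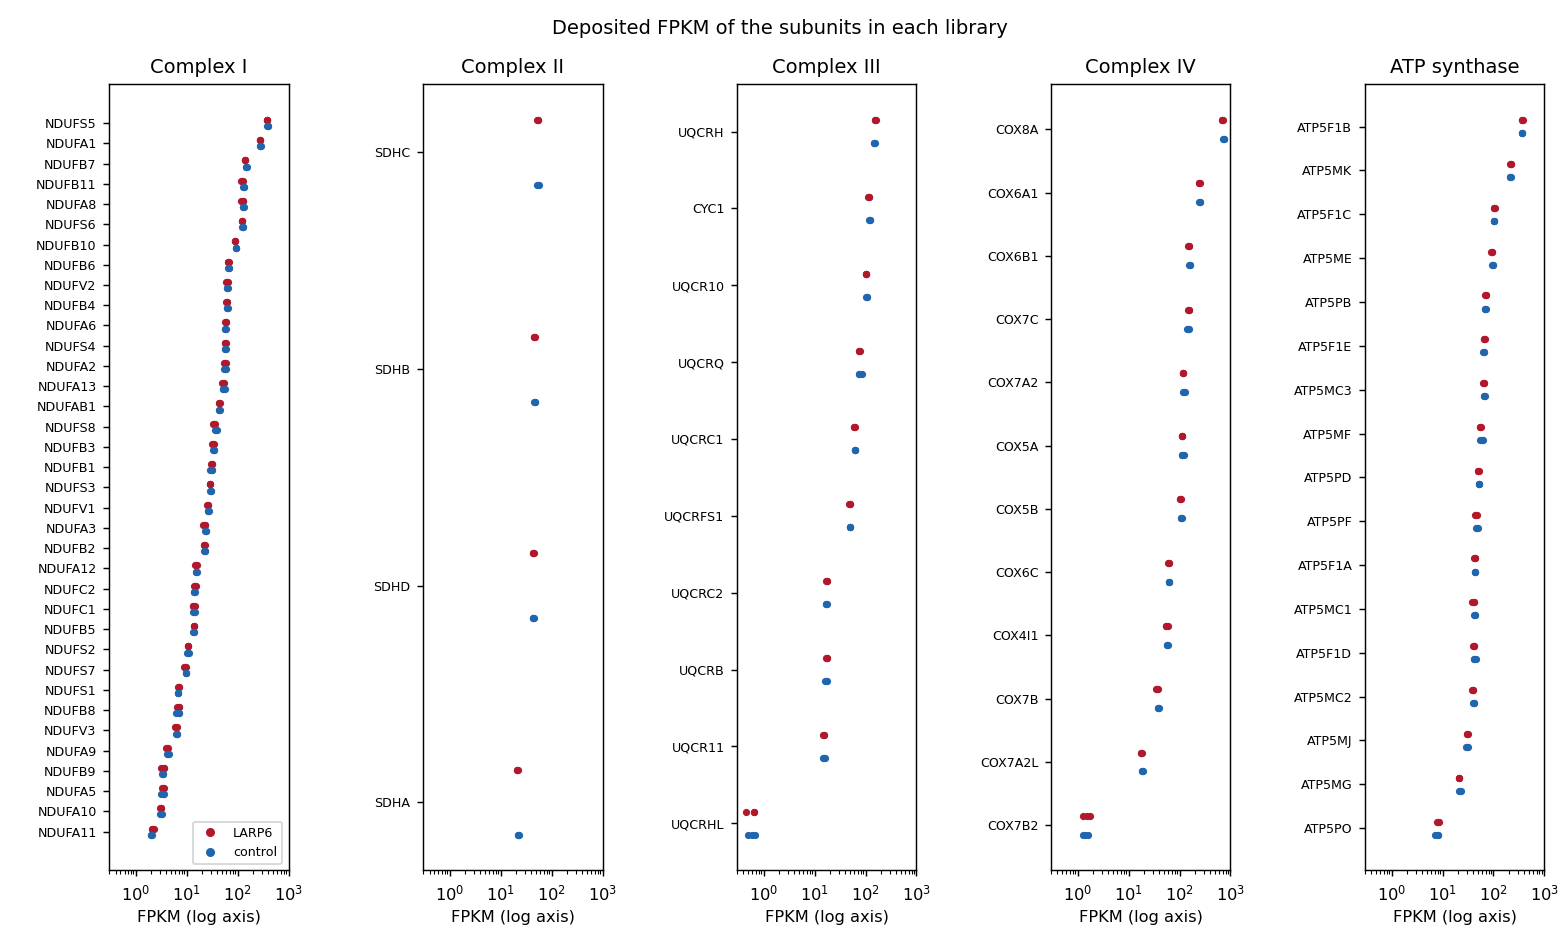
Deposited FPKM (x axis, log scale) of the tested subunits in each library, for LARP6 (red, upper points) and control (blue, lower points), ordered by level within each complex. The points of the 2 groups lie on top of each other at this scale, and levels within complex IV run from 1.46 FPKM in COX7B2 to 707 FPKM in COX8A.

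Among paralogs, the cells used the broadly expressed forms. COX6B1 stood at 225 to 249 CPM in all libraries, while the testis form COX6B2 and the muscle form COX7A1 had at most a few counts. COX7B2 made up 1.14% of the counts of its pair in LARP6 cells and 0.997% in control cells, and UQCRHL made up 0.6% in LARP6 cells and 0.639% in control cells. The c-ring genes ATP5MC1, ATP5MC2 and ATP5MC3 gave 21.0%, 30.2% and 48.9% of their summed counts in LARP6 cells and 21.3%, 30.2% and 48.5% in control cells.

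For some members the count depends on how the authors' counting treated shared exons. In GENCODE v29, 27 members share exon sequence on the same strand with another gene, and in 7 of these the partner has more counts. NDUFA7, a complex I subunit, had 21 counts in all, against 9163 for the overlapping gene CTD-2550O8.5, and was among the 4 members not tested. NDUFA11 had 2098 counts and its partner AC024592.12 had 26950, and that partner was called lower (-0.12 ± 0.03, adjusted p = 0.00944). UQCR11 and ATP5MG had partners called lower as well, AC005943.2 (-0.11 ± 0.03, adjusted p = 0.0409) and RP11-770J1.8 (-0.11 ± 0.03, adjusted p = 0.0135). The others of the 7 partners, those of NDUFA7, ATP5PO, NDUFB8 and NDUFC2, were not called. Their log2 fold changes were -0.07, -0.04, -0.03 and -0.06 (adjusted p = 0.468, 0.635, 0.742 and 0.33). Of all genes tested 3.6% were called lower, and 6.93% of genes with a mean of at least 20 CPM. Of the called members, COX8A shares 34.5% of its exon bases with AP000721.4, which had 411 counts. NDUFB11 overlaps RBM10 on the other strand, 1 of 37 members with such an overlap, and the strand setting of the counting is not stated. These partner genes were chosen after their values were seen, and the members they overlap are uncertain in level. Counts in 38 rows of pseudogenes of 25 members came to 2994, against 2472220 in the members.

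Promoters were searched for 4 motifs of factors known to act on these genes, in windows from 250 bases before to 50 after the RefSeq start (GRCh38.p14), on both strands. Of the 95 members 77 were in the promoter table. The NRF1 motif, shown by the capitals of the SDHA sequence and searched with 1 inner base left free, was in 22.1% of them, against 6.98% of all genes with a promoter there and 11.2% of the protein-coding genes of the count table. The ETS motif bound by GABPA (CCGGAAG) was in 29.9%, against 12.2% and 19.3%, and the YY1 motif (AANATGGCG) in 23.4%, against 3.85% and 6.72%. The E-box CACGTG was in 10.4%, against 8.77% and 11.9%. Of the members called lower, 6 had a promoter there, all but CYC1, and of these 2 held the ETS motif, 1 the YY1 motif, 0 the NRF1 motif and 0 the E-box. The median log2 fold change was -0.05 in promoters with the NRF1 motif and -0.06 in those without it, and -0.07 with the ETS motif and -0.04 without it. A match says that these letters are present, not that a factor is bound. The promoters of 2 called members and of SDHA, which has 4 NRF1 matches, are given to show these motifs, with the match in capitals:

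COX8A, ETS motif, chr11:63974370-63974669, plus strand: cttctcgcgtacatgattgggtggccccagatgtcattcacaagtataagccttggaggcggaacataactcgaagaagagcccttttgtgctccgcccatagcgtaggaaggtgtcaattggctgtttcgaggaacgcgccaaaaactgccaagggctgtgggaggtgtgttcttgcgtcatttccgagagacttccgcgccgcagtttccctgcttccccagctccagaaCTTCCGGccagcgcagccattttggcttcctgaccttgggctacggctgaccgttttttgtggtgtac

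NDUFS8, YY1 motif, chr11:68030431-68030730, plus strand: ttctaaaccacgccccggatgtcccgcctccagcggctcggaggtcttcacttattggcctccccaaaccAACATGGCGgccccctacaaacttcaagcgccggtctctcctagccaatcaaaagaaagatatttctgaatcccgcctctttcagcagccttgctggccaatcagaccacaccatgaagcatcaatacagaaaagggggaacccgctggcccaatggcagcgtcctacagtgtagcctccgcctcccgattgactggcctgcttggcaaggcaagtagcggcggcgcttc

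SDHA, NRF1 motif, chr5:218070-218369, plus strand: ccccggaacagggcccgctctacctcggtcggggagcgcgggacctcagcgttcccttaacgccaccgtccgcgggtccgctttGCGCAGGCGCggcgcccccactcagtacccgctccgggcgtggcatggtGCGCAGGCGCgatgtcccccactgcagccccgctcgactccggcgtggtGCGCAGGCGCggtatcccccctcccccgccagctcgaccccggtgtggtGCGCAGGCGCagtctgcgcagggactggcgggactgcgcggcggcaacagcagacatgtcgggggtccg

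The ETS match in COX8A begins 18 bases before the RefSeq start and reads on the minus strand, the YY1 match in NDUFS8 begins 180 bases before the start, and the NRF1 matches in SDHA begin at 166, 117, 68 and 19 bases before it.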

How the data were processed

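Messenger RNA libraries of MDA-MB-231 cells were used, 3 of LARP6 overexpression and 3 of no-load control, grouped by title. Whether the libraries are separate cultures is not in the labels, so the p-values cover library-to-library spread that may be technical. The authors deposited whole-number read counts per gene and FPKM per gene, the FPKM scaled by the authors for length and library size. The submitters' processing notes name HISAT2, DESeq2 and GRCh38. How reads were assigned to genes and by which annotation is not given in the sources used here.

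Counts were tested with edgeR 4.0.16 in R 4.3.3 (expression filter, TMM, robust quasi-likelihood test, no covariate), with Benjamini-Hochberg adjustment over 16226 genes and calls below 0.05. Every adjusted p printed is from this test, unless the sentence names another. CPM were computed here with TMM-scaled library sizes. The coefficient of variation between libraries beyond counting noise was 3.23%, from edgeR's common dispersion over the genes tested. With 3 libraries a group, the precision also depends on the counts of a gene. The SE was 0.03 in COX8A and 0.24 in COX7B2. The alternatives were other scalings, LARP6 left out, other count filters, DESeq2 1.42.0, limma-voom and limma 3.58.1 on log2 FPKM plus 1 or 0.1, a replicate block, GC and length offsets, a threshold of 0.01, and each library left out in turn. Scripts were tested on simulated data. Coordinates, lengths and overlaps are from GENCODE v29 on GRCh38, and promoters are from RefSeq. The members and lists were chosen with earlier results of these data known. Named genes are members called, members of at least 5 CPM whose groups did not overlap, the smallest p of each module, the highest and lowest FPKM of each complex, fixed paralogs, and the called or smallest-p genes of each list. Other genes named were chosen after their values were seen. Splicing was not analysed here.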

Additional observations from a re-analysis of the deposited data

How the results depend on the processing

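The 7 members called lower became 6 with RLE scaling, 8 with upper-quartile scaling, 7 with LARP6 left out of the counts, 6 with no low-count filter, 7 with CPM above 1 in 3 libraries, 5 with DESeq2 and 6 with limma-voom. In that order the shares of members were 6.59%, 8.79%, 7.69%, 6.32%, 7.69%, 5.49% and 6.59%. Those of all genes were 3.45%, 3.72%, 3.59%, 1.82%, 4.2%, 2.47% and 3.45%. Genes with a mean of at least 20 CPM had nearby shares of 6.6%, 7.19%, 6.91%, 6.19%, 6.97%, 5% and 6.63%. The 7 members became 4 with library size only and 4 at an adjusted p below 0.01, against 1.87% and 1.82% of all genes called lower. They became 0 with limma on log2 of FPKM plus 1, on FPKM plus 0.1 and on FPKM plus 1 filtered at a mean of at least 1. Those 3 FPKM fits called 2, 18 and 78 genes lower over the whole table, and 1, 5 and 77 higher. With 1 library left out the count ran from 2 to 11. In no setting run was a member called higher. The members' median log2 fold change was -0.053 in the main fit and -0.027 with library size only. It was -0.022, -0.029 and -0.026 in the 3 FPKM fits and -0.030 with GC and length offsets. With 1 library left out it ran from -0.058 to -0.038. The median over all genes of the same fits moved as well. It was 0.004 in the main fit and 0.030 with library size only. In the 3 FPKM fits it was 0.005, 0.024 and 0.017, and with GC and length offsets -0.002. COX7B and COX8A were called in 16 of 20 alternatives, NDUFB11 and NDUFS8 in 15, COX7A2L and CYC1 in 10, and COX6B1 in 6. With library size only the summed level differed by -2.34% in complex I, -1.71% in complex II, -1.16% in complex III, -0.687% in the ATP synthase and -1.62% over all members, and 17 members (18.7%) lay lower and 2 (2.2%) higher without overlap, against 27 and 0 with TMM. Over all genes that scaling put 8.05% lower and 14.9% higher without overlap, and 11.4% and 18.3% of genes with a mean of at least 20 CPM. Named genes that were not called changed sign in some settings. In the main fit ATP5F1B, ATP5IF1 and CYCS were at -0.021, -0.010 and -0.011. They were at 0.005, 0.016 and 0.015 with library size only, and at 0.004, 0.014 and 0.013 in all 3 FPKM fits. The median over all genes tested rose too with library size only, from 0.004 to 0.030. With GC and length offsets ATP5F1B was at 0.007, ATP5IF1 at 0.010, NDUFA1 at 0.010 and NDUFAF3 at 0.006. With 1 library left out the values ran from -0.154 to 0.095 for UQCRHL, from -0.063 to 0.164 for COX7B2, from -0.027 to 0.013 for CYCS and from -0.039 to 0.010 for ATP5IF1. The cause was not tested.

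The replicate numbers are shared by the groups, and the labels do not say whether they pair the libraries. The deviations of same-numbered libraries correlated at 0.0985, 0.0444 and 0.234 over 10072 genes. Those of differently numbered libraries correlated at -0.158 to 0.0737. LARP6 libraries 1 and 3 correlated best with the control library of their own number, and LARP6 library 2 with control library 1 (0.0737). With a replicate block 16 members (17.6%) were called lower, against 5.1% of all genes and 10% of genes with a mean of at least 20 CPM in that fit, and 11 of the 13 mitochondrially encoded subunits.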
